A study of Homo sapiens with 36 samples.

Results

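The ETS transcription factors described here are 10 genes: ETV1, ETV4, ETV5, ETV6, ERG, SPDEF, ELF3, EHF, ETS2 and ELK4. They were taken by gene name from a count table with 61805 named entries. The rule is a list of names with no threshold on a measured value. The names were chosen with earlier results of these data known. All 10 have an entry in every library.

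RNA sequencing was done on polyadenylated RNA from LNCaP, an androgen-dependent prostate cancer line, and 42D, a line derived from LNCaP that resists the androgen receptor blocker enzalutamide. The 36 libraries form 12 groups of 3. LNCaP comes as 4 lines named NT3, sgT33-5, sgT33-5_MC_C2 (here C2) and sgT33-5_MC_F2 (here F2), and 42D as NT3 and sgT33-5. The title of the series concerns loss of TRIM33, a ubiquitin ligase that works on chromatin. On that basis sgT33-5 was read as a guide against TRIM33 and NT3 as its non-targeting control, which the labels do not spell out, nor do they say whether C2 and F2 each come from 1 cell. All groups were kept for 3 days in medium with hormone-stripped serum, and then each line had 6 h of DMSO or of R1881, a synthetic androgen, at 5 nM. The growth conditions are written for LNCaP only, and whether replicates are cultures of their own is not said, which means that p-values measure the spread between these libraries, which may be technical.

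ETS factors share a DNA-binding domain that recognises a core of the letters GGAA, and the family holds activators and repressors. In prostate cancer they are known for gene fusions, in which the androgen-driven start of another gene, most often TMPRSS2, is joined to ERG, ETV1, ETV4, ETV5 or ELK4. SPDEF, ELF3 and EHF belong to the epithelial members of the family and are made in normal secretory epithelium.

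Libraries held 13900744 to 19793268 counts. Gene positions are those of the deposited table, on GRCh38. Levels are given as CPM, counts scaled to the size of the library with all 36 libraries normalised together, and differences as log2 fold changes with their standard error (SE) from edgeR's quasi-likelihood test, 3 libraries against 3. A gene is said to have risen, fallen or differed where its p-value, adjusted over all genes tested by the Benjamini-Hochberg method, was under 0.05. At either treatment TRIM33 lay below NT3 in each of the guide lines, with log2 fold changes from -0.52 in 42D to -1.57 in C2. In LNCaP, 2 libraries of the sgT33-5 line stood apart in the share of counts from mitochondrial genes (2.14% and 2.40%, against 4.16% to 6.66% in the others), and results that change without them are named. Of 9 markers of luminal prostate epithelium, 9 averaged above 1 CPM in either cell line, and of 8 leukocyte markers 0 did. Among 5 endothelial markers, a group that matters for ERG because endothelium expresses it, 1 did in each line (VWF at 15.4 CPM in LNCaP, KDR at 1.48 CPM in 42D).

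The expression filter kept 8 of the 10 genes for tests within LNCaP (ERG and ETV4 had too few counts), 8 within 42D (ERG and ETV1 had too few) and 9 for tests between the cell lines (ERG had too few). ERG, the usual fusion gene of prostate cancer (ENSG00000157554, chromosome 21, 38380027 to 38661780), had 43 counts in all over the 24 LNCaP libraries and 89 over the 12 libraries of 42D. Its highest library reached 0.440 CPM among the former and 0.894 CPM among the latter, and no fold change or test is given for it.

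Per kilobase of exon, which allows levels of different genes to be compared, EHF stood far above the rest. Its median over the DMSO libraries was 183 CPM per kb in LNCaP and 248 CPM per kb in 42D. In LNCaP with DMSO the order went on with ETV1 at 36.6, SPDEF at 29.001, ELK4 at 16.0, ETV6 at 4.14, ELF3 at 2.76, ETS2 at 2.23, ETV5 at 0.368, ETV4 at 0.0574 and ERG at 0.0122 CPM per kb. With R1881, SPDEF passed ETV1 in LNCaP (52.2 against 40.0 CPM per kb), and ETS2 passed ELF3 (3.29 against 1.504 CPM per kb). In 42D with R1881, SPDEF reached 208 CPM per kb, second only to EHF at 346, and ETV1 was last with a median of 0.

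**Figure D1:**
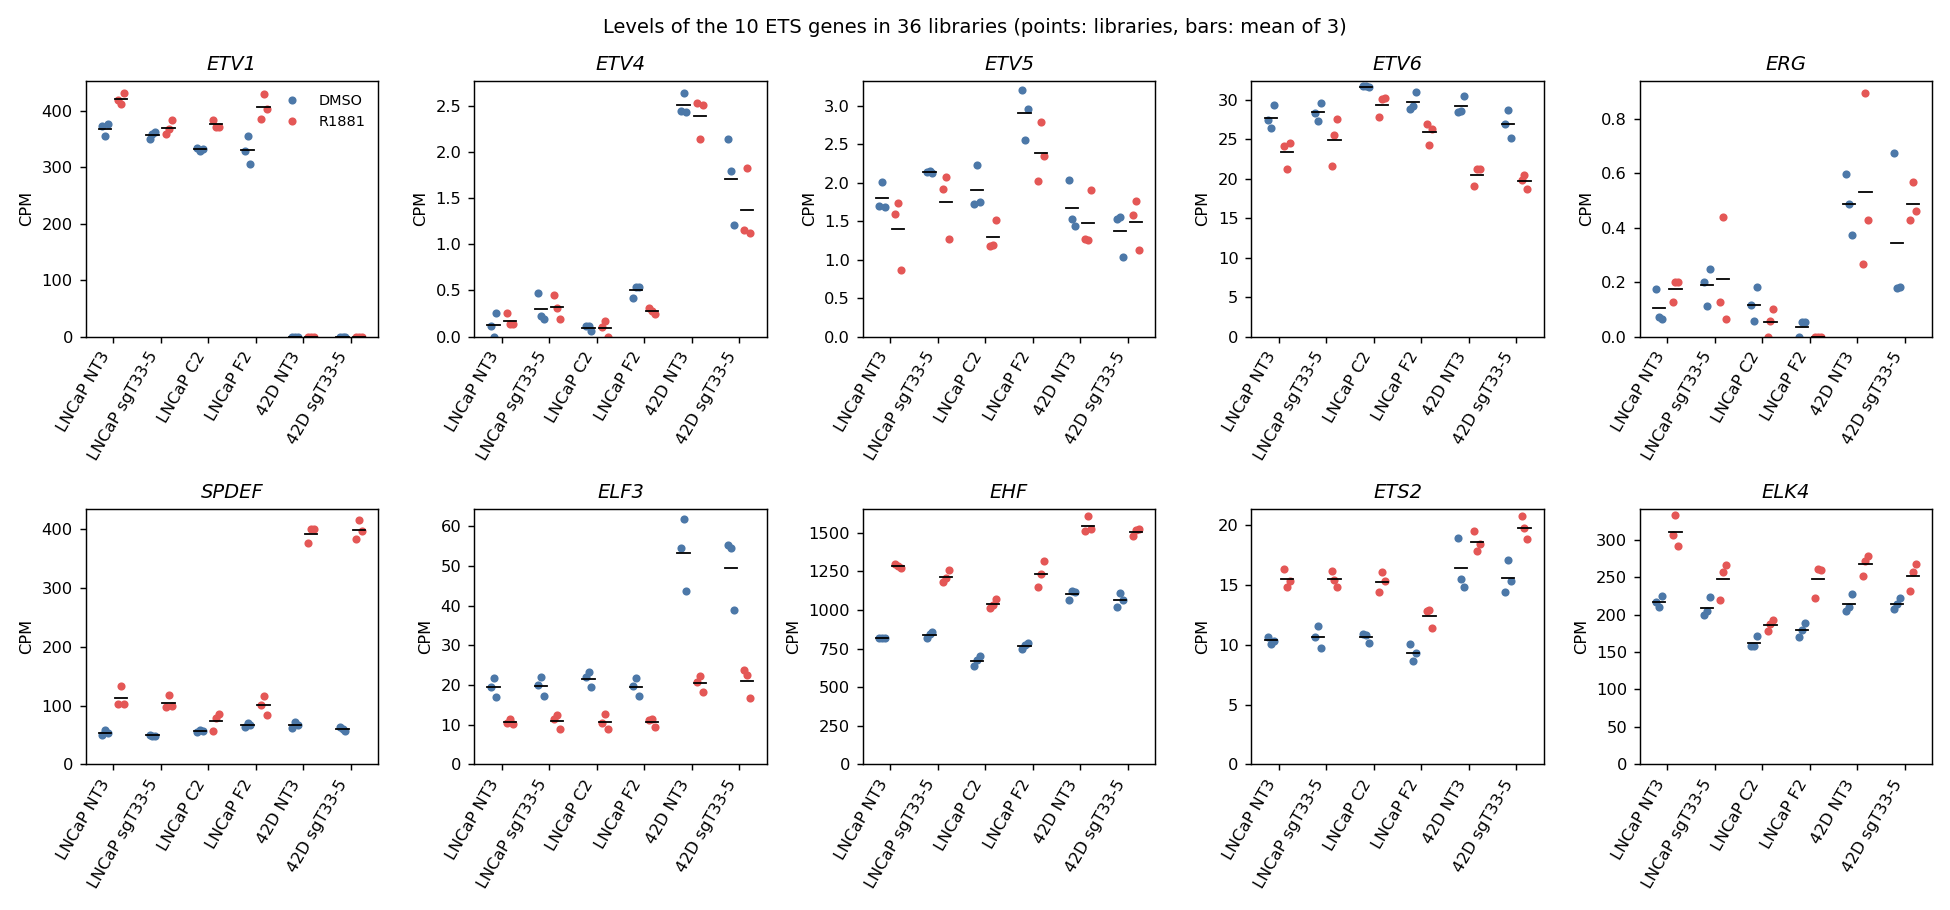
CPM (vertical axes, linear from 0, 1 panel a gene) in the 6 lines with DMSO (blue) and R1881 (red), 3 libraries a group as points and their mean as a bar. ETV1 is near 0 in all 42D libraries and 306 to 431 CPM in all LNCaP libraries, and SPDEF rises most in 42D.

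The starts of 4 of these genes are shown because they carry the largest rise (SPDEF), the fall seen in every line (ELF3), a difference from NT3 in each of the LNCaP guide lines with R1881 (ELK4) and the near absence from 42D (ETV1). Each window runs from 250 bases before to 50 after a start annotated by RefSeq on GRCh38.p14, is written along the gene's strand, and has GGAA or its reverse complement TTCC in capitals. Of the 10 genes, 8 had an entry (ETV4 and ETV5 had none), with 18 windows in all, and for ETV1 the first of its windows is shown.
SPDEF, chr6:34556280-34556579, minus strand: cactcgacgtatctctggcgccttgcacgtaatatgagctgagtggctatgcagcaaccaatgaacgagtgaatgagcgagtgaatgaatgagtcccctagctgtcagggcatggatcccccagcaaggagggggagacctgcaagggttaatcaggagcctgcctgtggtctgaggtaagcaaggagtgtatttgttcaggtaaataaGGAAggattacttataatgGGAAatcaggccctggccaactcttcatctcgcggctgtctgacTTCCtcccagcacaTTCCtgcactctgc
ELF3, chr1:202010337-202010636, plus strand: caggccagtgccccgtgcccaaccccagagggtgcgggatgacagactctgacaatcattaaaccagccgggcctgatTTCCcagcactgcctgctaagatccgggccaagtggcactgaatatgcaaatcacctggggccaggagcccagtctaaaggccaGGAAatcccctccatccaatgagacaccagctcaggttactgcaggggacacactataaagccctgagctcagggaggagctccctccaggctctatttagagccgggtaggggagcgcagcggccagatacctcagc
ELK4, chr1:205631962-205632261, minus strand: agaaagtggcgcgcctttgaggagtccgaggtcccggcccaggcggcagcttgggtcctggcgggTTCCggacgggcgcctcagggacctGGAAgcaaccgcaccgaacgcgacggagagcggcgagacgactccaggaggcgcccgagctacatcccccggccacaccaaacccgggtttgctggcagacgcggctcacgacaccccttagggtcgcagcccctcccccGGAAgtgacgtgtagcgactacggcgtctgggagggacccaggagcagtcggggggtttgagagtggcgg
ETV1, chr7:13990653-13990952, minus strand: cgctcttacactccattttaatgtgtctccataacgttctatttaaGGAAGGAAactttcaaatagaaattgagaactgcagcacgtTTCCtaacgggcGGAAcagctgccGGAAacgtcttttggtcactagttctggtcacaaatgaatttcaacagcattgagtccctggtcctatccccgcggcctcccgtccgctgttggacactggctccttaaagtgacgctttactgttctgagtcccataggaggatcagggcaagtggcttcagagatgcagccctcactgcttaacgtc
GGAA, searched on both strands, occurs in 95.4% of 34943 windows of this length, so its presence sets none of them apart. The longer form CCGGAA is in 17.2% of windows, and in those shown it occurs 2 times in ELK4 and 1 time in ETV1. Both overlap a GGAA in capitals. The full palindromic androgen response element, searched on both strands with its middle 3 letters free, is in none of the 18 windows and in 0.00286% of all windows. AGAACA, a single arm of it, is in 14.8% of all windows and, in the windows shown, only in that of ETV1. Of the ETV1 windows not shown, window 4 covers nearly the same stretch and holds it, and windows 2, 3, 5 and 6 do not.

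SPDEF, EHF, ETS2, ELK4 and ETV1 rose and ELF3 and ETV6 fell with 6 h of R1881 in the NT3 line of LNCaP. These were 7 of 8 genes tested, where 13.2% of all 15519 genes tested were called. Since the members were chosen with earlier results of these data known, that share is no test of the family. The median log2 fold change of the 8 genes was 0.34, and that of all genes tested was -0.01. SPDEF showed the largest rise and ELF3 the largest fall. In RNA from whole cultures, fewer cells that express a gene and less RNA per cell cannot be told apart. ETV5 did not pass (log2 fold change -0.36, SE 0.24, edgeR adjusted p = 0.434).

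SPDEF, a factor of secretory luminal cells (ENSG00000124664, chromosome 6, 34537802 to 34556333), stood at 50.7, 58.1 and 52.8 CPM with DMSO and at 103, 134 and 102 CPM with R1881 in LNCaP NT3. All 3 R1881 libraries lay above all 3 DMSO libraries. The log2 fold change was 1.06 (SE 0.138, edgeR adjusted p = 8.69e-06). In the sgT33-5 line the levels went from 49.9, 48.4 and 48.8 to 96.7, 118 and 98.9 CPM, a log2 fold change of 1.09 (SE 0.138). F2 cells went from 63.2, 71.0 and 66.1 to 101, 117 and 84.8 CPM, which is 0.59 (SE 0.134, edgeR adjusted p = 0.0055). In C2 the DMSO values of 54.1, 59.2 and 56.9 CPM overlapped the R1881 values of 56.5, 79.1 and 85.8 CPM, and the log2 fold change of 0.37 (SE 0.137) did not pass (edgeR adjusted p = 0.152). The low value belongs to C2 with R1881, replicate 1. Without it the log2 fold change was 0.55 (edgeR adjusted p = 0.00707), and over all alternatives that adjusted p lay between 0.00707 and 0.393.

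The rise of SPDEF was larger in 42D. In 42D NT3 it went from 61.2, 71.9 and 67.2 CPM to 376, 401 and 400.5 CPM, 5.97-fold (log2 fold change 2.58, SE 0.0564, edgeR adjusted p = 4.15e-19). In 42D sgT33-5 it went from 63.3, 60.1 and 57.3 CPM to 383, 417 and 397 CPM, 6.64-fold. No R1881 library of 42D came near a DMSO library, and none came near the highest LNCaP library of 134 CPM. The difference of the NT3 responses was tested directly and was 1.49 on the log2 scale (SE 0.169, edgeR adjusted p = 9.25e-07). SPDEF was the only one of the 9 genes tested that passed there, where 3.85% of 16564 genes did. With a replicate block ELF3, EHF and ETS2 passed as well.

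EHF, an epithelial factor (ENSG00000135373, chromosome 11, 34621093 to 34663288), rose in all 6 lines. With DMSO it stood at 817, 821 and 819 CPM in LNCaP NT3, and with R1881 at 1297, 1283 and 1274 CPM. The groups did not overlap, and the log2 fold change was 0.64 (SE 0.0471, edgeR adjusted p = 5.95e-11). Over the 6 lines the rise lay between 0.50 and 0.67 on the log2 scale, with no overlap of the groups in any line. In 42D NT3 the values were 1065, 1122 and 1119 CPM with DMSO and 1511, 1608 and 1522 CPM with R1881.

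ELF3 (ENSG00000163435, chromosome 1, 202007945 to 202017183), an epithelial factor often linked to differentiation and inflammation, fell in all 6 lines. In LNCaP NT3 it stood at 19.4, 21.8 and 16.9 CPM with DMSO and at 10.5, 11.5 and 10.1 CPM with R1881. All R1881 values lay below all DMSO values, and the log2 fold change was -0.86 (SE 0.137, edgeR adjusted p = 3.84e-05). The sgT33-5 line gave -0.86 as well, C2 gave -1.02 and F2 gave -0.88. In 42D NT3 it fell from 54.5, 61.8 and 43.7 CPM to 20.8, 22.2 and 18.3 CPM (log2 fold change -1.36, SE 0.191, edgeR adjusted p = 0.000478), and in 42D sgT33-5 from 55.3, 54.5 and 38.9 CPM to 23.7, 22.5 and 16.8 CPM (-1.23, SE 0.191). ELF3 in 42D thus started from a higher level and with R1881 came to about the level of LNCaP with DMSO. The larger response of 42D did not pass as a difference between the cell lines (-0.53, SE 0.228, edgeR adjusted p = 0.264). It passed with no filter on low counts (-0.52, adjusted p = 0.0113) and with a replicate block (-0.52, adjusted p = 0.000286), in a range of 0.000286 to 0.521 over all alternatives.

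ETS2, a gene related to a retroviral oncogene (ENSG00000157557, chromosome 21, 38805183 to 38824955), rose in 5 of 6 lines. In LNCaP NT3 it went from 10.7, 10.1 and 10.4 CPM to 16.4, 14.8 and 15.4 CPM without overlap (log2 fold change 0.57, SE 0.0885, edgeR adjusted p = 2.32e-05). The other LNCaP lines gave 0.53, 0.52 and 0.40 for sgT33-5, C2 and F2. In 42D it rose by 0.35 in sgT33-5 (SE 0.0925, edgeR adjusted p = 0.00688). In 42D NT3 the DMSO values of 18.9, 15.5 and 14.8 CPM overlapped the R1881 values of 19.5, 17.9 and 18.4 CPM, and 0.20 (SE 0.0931) did not pass (edgeR adjusted p = 0.136). That rests on replicate 1 with DMSO: without it the log2 fold change was 0.31 (edgeR adjusted p = 0.022, with a range of 0.022 to 0.43 over all alternatives).

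ELK4, which acts with serum response factor on growth-factor genes (ENSG00000158711, chromosome 1, 205597556 to 205632011), rose in 5 of 6 lines. In LNCaP NT3 it stood at 217, 209.6 and 225 CPM with DMSO and at 306, 333 and 292 CPM with R1881 (log2 fold change 0.51, SE 0.0693, edgeR adjusted p = 3.85e-06). The groups were apart there, in C2, in F2 (0.45, SE 0.0695), in 42D NT3 (0.34, SE 0.0546) and in 42D sgT33-5 (0.23, SE 0.0546). In LNCaP sgT33-5 they overlapped, at 199, 205 and 223 against 220.1, 257 and 267 CPM. That log2 fold change of 0.24 passed (edgeR adjusted p = 0.0218) but was lost on leaving out any of 4 libraries, with adjusted p between 0.000847 and 0.113 over all alternatives. Those 4 were DMSO replicates 1 and 2 (adjusted p = 0.107 and 0.0902) and R1881 replicates 2 and 3 (0.0988 and 0.113). The call was lost also with only the libraries compared (0.0674). In C2 the log2 fold change was 0.19 (SE 0.0698) and did not pass (edgeR adjusted p = 0.14). It passed with no filter on low counts (0.0187), with a replicate block (0.0148) and with only the libraries compared (0.0267), in a range of 0.0148 to 0.355.

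ETV1 and ETV6 moved by smaller steps. ETV1, a PEA3-group activator, went from 373, 354 and 377 CPM to 418, 411 and 431 CPM in LNCaP NT3, 1.14-fold (log2 fold change 0.18, SE 0.0495, edgeR adjusted p = 0.011). That call was lost without NT3 DMSO replicate 2 (adjusted p = 0.0616) or NT3 R1881 replicate 3 (0.0725), and lay between 0.0025 and 0.0725 over all alternatives. It rose by 0.29 in F2 (edgeR adjusted p = 0.000141), whose call held in every alternative run. C2 gave 0.17 (edgeR adjusted p = 0.035, 0.00835 to 0.0906 over the alternatives), a call lost without DMSO replicate 1 (0.0806), 2 (0.0809) or 3 (0.0548) or R1881 replicate 1 (0.0906) or 2 (0.0761). In sgT33-5 the values overlapped and 0.04 did not pass.

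ETV6, a repressor of the family (ENSG00000139083, chromosome 12, 11649674 to 11895377), fell in LNCaP NT3 from 27.5, 26.4 and 29.3 CPM to 24.2, 21.3 and 24.6 CPM (log2 fold change -0.26, SE 0.0798, edgeR adjusted p = 0.0304). The groups did not overlap, but the call was lost without NT3 DMSO replicate 1 (adjusted p = 0.0735) or 3 (0.124) or R1881 replicate 2 (0.209). That call was lost also with only the libraries compared (0.0672), with a range of 0.00855 to 0.209 over all alternatives. In 42D the fall was -0.49 in NT3 (SE 0.0741, edgeR adjusted p = 2.64e-05), from 28.5, 28.6 and 30.6 to 19.1, 21.2 and 21.3 CPM, and -0.45 in sgT33-5 (SE 0.0748). In F2, where replicate numbers pair the libraries, -0.21 did not pass (edgeR adjusted p = 0.0856) and passed with the replicate block (-0.21, adjusted p = 0.0283). It passed also without both libraries of low mitochondrial share (adjusted p = 0.0491), and ranged from 0.0283 to 0.283 over all alternatives. The other LNCaP lines gave -0.20 for sgT33-5 and -0.12 for C2, and neither passed. Without sgT33-5 R1881 replicate 3, the sgT33-5 value was -0.27 (edgeR adjusted p = 0.0389). With a replicate block it passed as well (-0.20, edgeR adjusted p = 0.0421).

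Counts of the 8 genes called with R1881 were 5 for sgT33-5 (12.5% of all genes), 4 for C2 (5.66%), 6 for F2 (10.4%), 5 in 42D NT3 (25.3%) and 6 in 42D sgT33-5 (27.3%). As for LNCaP NT3, the way the members were chosen keeps these counts from testing the family. ETV5, with 0.868 to 3.20 CPM in LNCaP and 1.03 to 2.03 CPM in 42D, was called in none of the 6 lines, at log2 fold changes from -0.56 to 0.13. ETV4 was tested in 42D only and was called in neither line (-0.05 and -0.32). None of the 3 LNCaP guide lines had a member whose response differed from that of NT3 by edgeR without a replicate block. At unadjusted p under 0.05 there was 1 for sgT33-5, there were 2 for C2 and there was 1 for F2, and 0%, 0.689% and 0% of all genes were called. The largest such difference was SPDEF in C2 (-0.69, SE 0.193, edgeR adjusted p = 0.158), which passed by DESeq2 (-0.68, adjusted p = 0.0237). DESeq2 called no other gene of the 8 in these 3 comparisons. With a replicate block, edgeR called SPDEF (-0.69, adjusted p = 0.0386) and ELK4 (-0.32, adjusted p = 0.0117) for the C2 response. Without the block, the ELK4 difference of -0.32 did not pass (edgeR adjusted p = 0.212).

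**Figure D2:**
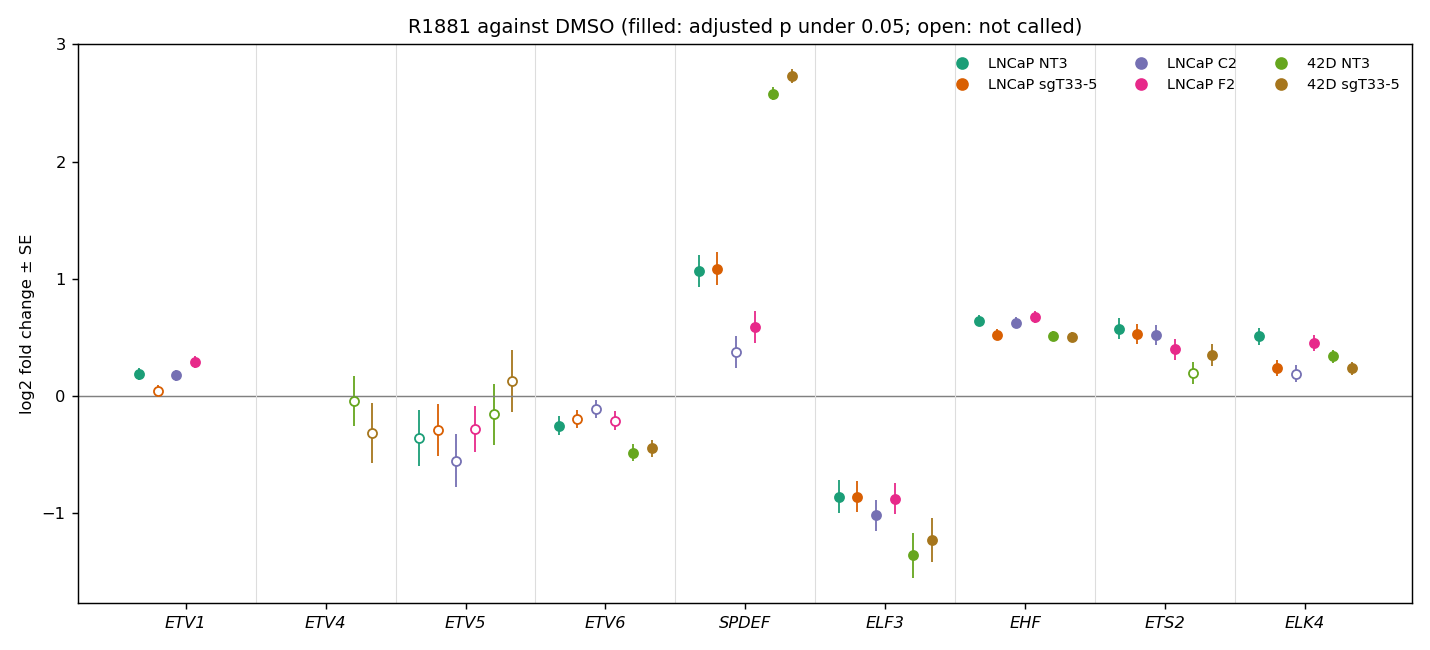
Log2 fold change with R1881 against DMSO (vertical axis, points with SE bars, filled where the edgeR adjusted p is under 0.05) for the 9 genes tested, with the 6 lines side by side within a gene. EHF lies above and ELF3 below 0 in every line, and SPDEF is at 2.58 and 2.73 in the 42D lines.

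Patterns like those of SPDEF and ELF3 were looked up over the 8 LNCaP groups, as the Pearson correlation of group means of log2 CPM among 11043 genes. The closest to SPDEF were GOLGA3 (0.994), POLR3E (0.992) and NR4A1 (0.991). For ELF3 they were YIPF1 (0.979), ANKRD16 (0.972) and RFX3 (0.970). The correlation takes no account of size: over the group means YIPF1 spanned only 33.4 to 37.7 CPM and GOLGA3 172 to 237 CPM, while RFX3 spanned 23.8 to 67.3 CPM. The 8 groups share lines and treatments, so these values describe likeness of shape only.

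Of 18 further ETS genes, 11 were tested in LNCaP NT3 and 2 rose, where 13.2% of all genes were called. These were ELF2, at a log2 fold change of 0.53 (SE 0.0627), and ELF4, at 0.42 (SE 0.112). ELF2, a close relative of ELF1, rose in all 6 lines, by 0.27 to 0.82 on the log2 scale. In LNCaP NT3 it went from 35.1, 33.3 and 30.1 CPM to 48.9, 45.7 and 48.4 CPM, and in 42D NT3 from 44.6, 41.2 and 38.9 CPM to 71.1, 69.1 and 77.0 CPM. The groups were apart in both.

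Among 10 genes known to lend their starts to ETS fusions, 6 rose and 0 fell in LNCaP NT3, where 13.2% of all genes were called, and 8 rose and 0 fell in 42D NT3, where 25.3% were. This list, like the others here, was chosen with earlier results of these data known. HNRNPA2B1 and FOXP1 were called in none of the 6 lines, at log2 fold changes of at most 0.07 and 0.21. TMPRSS2, a membrane protease, went from 80.9, 81.9 and 64.7 CPM to 872, 977 and 697 CPM in LNCaP NT3 (log2 fold change 3.48, SE 0.143). ERG lies 2.8 Mb from TMPRSS2 on chromosome 21 and stayed at 1 to 3 counts in those 6 libraries. SLC45A3, a transporter gene made by prostate epithelium, went from 79.7, 92.9 and 77.6 CPM to 488, 599 and 471 CPM.

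ERK signalling outputs, a set of feedback genes that growth-factor signalling switches on and ETS factors can serve, were mixed. In LNCaP NT3, 3 of 10 tested rose and 4 fell, against 13.2% of all genes called. SPRED1, an inhibitor of RAS signalling, rose from a mean of 16.9 to 31.2 CPM (log2 fold change 0.88, SE 0.0936). DUSP5, an ERK phosphatase, fell from 8.53, 7.25 and 6.73 CPM to 5.36, 4.12 and 3.81 CPM (-0.77), and fell in all 6 lines, by -0.63 to -1.21. In 42D NT3, 1 of 11 rose and 5 fell, against 25.3% of all genes called. Among those that fell was SPRY1, another inhibitor of the pathway, at -1.52 (SE 0.104).

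Guide lines were compared with NT3 at either treatment. Within a treatment the 3 LNCaP comparisons share the same NT3 libraries, so their values are set side by side and are not independent. With DMSO, sgT33-5 had 0 of 8 genes called by edgeR (0 at unadjusted p under 0.05, 0 by DESeq2), against 1.4% of all genes. For C2 it was 3 (18.2% of all genes) and for F2 3 (16.7%). With R1881 sgT33-5 had 2 (3.04%), C2 had 5 (23%) and F2 had 3 (13.4%). The gene lower in most of these comparisons was ELK4.

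With DMSO, ELK4 stood at 217, 209.6 and 225 CPM in NT3 and at 199, 205 and 223 CPM in sgT33-5. C2 had 158, 158 and 171 CPM, and F2 had 170.0, 180.1 and 189 CPM. C2 and F2 lay below NT3 throughout, and sgT33-5 overlapped it. The log2 fold change was -0.05 for sgT33-5, which was not called, -0.41 for C2 (SE 0.0699, edgeR adjusted p = 0.000111) and -0.27 for F2 (SE 0.0696, adjusted p = 0.0077).

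With R1881, ELK4 stood at 306, 333 and 292 CPM in NT3 and at 220.1, 257 and 267 CPM in sgT33-5. C2 had 178, 188 and 192 CPM, and F2 had 222, 261 and 259 CPM. Every guide library lay below every NT3 library. These correspond to log2 fold changes of -0.32 for sgT33-5 (SE 0.069, edgeR adjusted p = 0.00894), -0.73 for C2 (SE 0.0694, adjusted p = 9.81e-09) and -0.33 for F2 (SE 0.069, adjusted p = 0.00171). The sgT33-5 call was lost without both libraries of low mitochondrial share (-0.24, adjusted p = 0.0789). It was lost also without sgT33-5 R1881 replicate 1 alone (0.0877) or NT3 R1881 replicate 2 (0.0744), and with only the libraries compared (0.0859). The range over all alternatives was 1.43e-05 to 0.0877. The C2 and F2 calls held in every alternative run. C2 also lay below F2, by -0.40 with R1881 (SE 0.0693, edgeR adjusted p = 9.89e-05), and by -0.14 with DMSO, which did not pass (adjusted p = 0.171) and passed with the replicate block that pairs these libraries (adjusted p = 0.0409).

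ELK4 lies 25.8 kb downstream of SLC45A3 on chromosome 1, both on the minus strand, and transcripts running from SLC45A3 into ELK4 are known in prostate cancer. Gene counts cannot tell such transcripts from those begun at the start of ELK4. SLC45A3 was lower in the same guide lines, by -0.76, -1.38 and -0.56 with DMSO and by -0.58, -1.82 and -0.62 with R1881 in sgT33-5, C2 and F2. Its part in the ELK4 result was not tested. In 42D NT3 with DMSO, SLC45A3 was at 10.9, 16.5 and 14.3 CPM, far below LNCaP, while ELK4 was at 205, 210.1 and 228 CPM, beside 217, 209.6 and 225 CPM in LNCaP NT3.

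**Figure D3:**
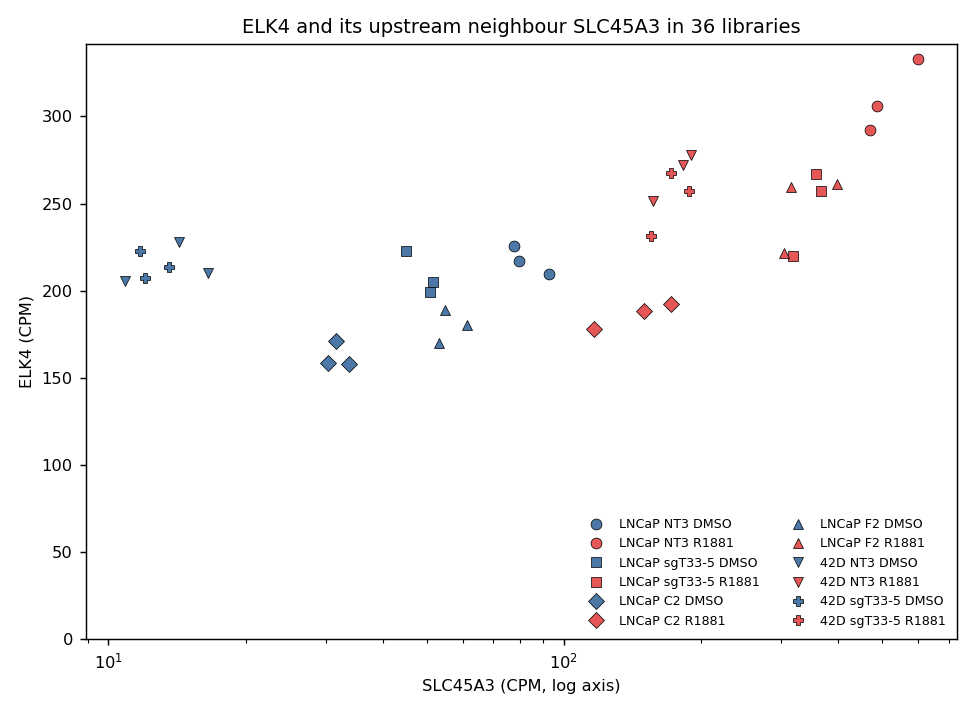
ELK4 (vertical axis, CPM from 0) against SLC45A3 (horizontal axis, CPM on a log scale), 1 point a library, with the line as the marker's shape and the treatment as its colour. Within LNCaP and within each treatment the C2 libraries have the least SLC45A3 and the lowest mean ELK4, NT3 with R1881 is highest in both, and the 42D libraries with DMSO hold 205 to 228 CPM of ELK4 at 10.9 to 16.5 CPM of SLC45A3.

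C2 differed from NT3 in further members. EHF was lower at 636, 679 and 700.0 CPM against 817, 821 and 819 with DMSO (log2 fold change -0.28, SE 0.0471, edgeR adjusted p = 0.000105). With R1881 it was lower again, at 1014, 1034 and 1070.3 CPM against 1297, 1283 and 1274 (-0.30, SE 0.0469, edgeR adjusted p = 2.8e-05). All C2 libraries lay below all NT3 libraries. SPDEF with R1881 was lower in C2, at 56.5, 79.1 and 85.8 CPM against 103, 134 and 102 (-0.61, SE 0.133, edgeR adjusted p = 0.00231), while with DMSO 0.08 did not pass. ETV6 with R1881 was higher in C2, at 27.8, 30.2 and 30.3 CPM against 24.2, 21.3 and 24.6 (0.34, SE 0.0783, edgeR adjusted p = 0.00228). With DMSO ETV6 did not pass in C2 (0.20, edgeR adjusted p = 0.0766), but did without both libraries of low mitochondrial share (0.0466, range 0.0269 to 0.258).

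F2 differed from NT3 in other members. ETV5, a PEA3-group relative of ETV1 with few counts (ENSG00000244405, chromosome 3, 186046314 to 186110318), was higher at 3.20, 2.55 and 2.96 CPM against 1.70, 2.01 and 1.68 with DMSO (log2 fold change 0.70, SE 0.207, edgeR adjusted p = 0.0208). With R1881 it was at 2.03, 2.79 and 2.35 against 1.59, 1.73 and 0.868 CPM (0.77, SE 0.225, adjusted p = 0.022). The groups were apart in both, at 13 to 55 counts a library. The DMSO call was lost without NT3 replicate 1 (adjusted p = 0.0886) or 3 (0.0630) or F2 replicate 1 (0.0757) or 3 (0.0593). With R1881 it was lost without NT3 replicate 3 (0.136) or F2 replicate 2 (0.118), and with only the libraries compared (0.101). The ranges over all alternatives were 0.0105 to 0.0886 with DMSO and 0.0118 to 0.136 with R1881. SPDEF with DMSO stood at 63.2, 71.0 and 66.1 CPM in F2 against 50.7, 58.1 and 52.8 CPM in NT3, without overlap. Its log2 fold change of 0.315 did not pass (edgeR adjusted p = 0.135), but did with only the libraries compared (0.00785).

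ETS2 with R1881 was lower in F2 than in NT3, at 12.8, 13.0 and 11.4 against 16.4, 14.8 and 15.4 CPM (log2 fold change -0.32, SE 0.0858, edgeR adjusted p = 0.0116). The call was lost without NT3 replicate 1 (adjusted p = 0.0814) or F2 replicate 3 (0.0657). It was lost also with no filter on low counts (0.0736) and with only the libraries compared (0.0875), and the range was 0.00442 to 0.0875. Against each other, C2 and F2 differed in 2 of 8 genes with DMSO (18.1% of all genes) and in 5 with R1881 (21%). With DMSO these were EHF (-0.19, edgeR adjusted p = 0.00496) and ETV5 (-0.60, adjusted p = 0.0365), both lower in C2. ETV5 there was lost without C2 replicate 1 (0.128) or 3 (0.106) or F2 replicate 1 (0.114) or 3 (0.0805). It was lost also by DESeq2 (0.0701) and with no filter on low counts (0.0678), in a range of 0.0186 to 0.128. SPDEF with DMSO did not pass between them (-0.23, edgeR adjusted p = 0.272), but did with only the libraries compared (0.00968).

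With R1881, C2 was lower than F2 in ETV5 (log2 fold change -0.87, edgeR adjusted p = 0.00487), SPDEF (-0.45, adjusted p = 0.022), EHF (-0.24, adjusted p = 0.000479) and ELK4, and higher in ETS2 (0.31, adjusted p = 0.0096). SPDEF overlapped between them and was lost without C2 replicate 1 (0.126) or F2 replicate 1 (0.0544) or 2 (0.140). It was lost also with no filter on low counts (0.0690) and with only the libraries compared (0.101), in a range of 0.00455 to 0.140. ETS2 was lost without C2 replicate 2 (0.0510) or F2 replicate 3 (0.0522). It was lost also with only the libraries compared (0.0622), in a range of 0.00345 to 0.0622. ETV6 did not pass (0.19, edgeR adjusted p = 0.0762), but did without both libraries of low mitochondrial share (0.0457, range 0.0288 to 0.279).

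ETV1 was slightly lower in some of the guide comparisons. It overlapped NT3 and was not called in sgT33-5 with DMSO (350, 359 and 362 CPM) or in F2 with R1881 (385, 429 and 403 CPM). With DMSO it stood at 333, 329 and 333 CPM in C2 and at 329, 355 and 306 CPM in F2, against 373, 354 and 377 in NT3 (log2 fold changes -0.14 and -0.16, edgeR adjusted p = 0.0419 and 0.0306). With R1881 it was -0.18 in sgT33-5 (359, 367 and 383 CPM, edgeR adjusted p = 0.0427) and -0.16 in C2 (384, 371 and 372 CPM, adjusted p = 0.0229), against 418, 411 and 431 CPM. With DMSO the C2 call was lost without NT3 replicate 1 or 3 or any of the C2 replicates (adjusted p from 0.0684 to 0.103), and the F2 call without NT3 replicate 1 or 3 or F2 replicate 1 or 3 (0.0785 to 0.234). With R1881 the sgT33-5 call was lost without any of the NT3 replicates or sgT33-5 replicate 1 or 2 (0.0763 to 0.187), and the C2 call without NT3 replicate 1 or 3 or any of the C2 replicates (0.0519 to 0.125). Over all alternatives the adjusted p ranged from 0.0142 to 0.103 and 0.00612 to 0.234 for C2 and F2 with DMSO, and from 0.00815 to 0.207 and 0.00689 to 0.128 for sgT33-5 and C2 with R1881. Without both libraries of low mitochondrial share, the sgT33-5 value was -0.16 (adjusted p = 0.207). With no filter on low counts each of these calls was lost (adjusted p from 0.0781 to 0.128). With only the libraries compared, the F2 call with DMSO (0.101) and the sgT33-5 call with R1881 (0.189) were lost.

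In 42D none of the 8 genes was called against NT3 by edgeR, with DMSO (2 at unadjusted p under 0.05, 1.13% of all genes called) or with R1881 (1 at unadjusted p under 0.05, 0.513%). DESeq2 called 0 as well. Nor was a difference in the response to R1881 called (0 at unadjusted p under 0.05, 0.123% of all genes). ETV4, an activator of the PEA3 group (ENSG00000175832, chromosome 17, 43527844 to 43579620), was at 2.45, 2.64 and 2.43 CPM in NT3 and 2.14, 1.79 and 1.21 CPM in sgT33-5 with DMSO. With R1881 it was at 2.53, 2.14 and 2.51 against 1.16, 1.82 and 1.12 CPM. The groups were apart in both, and -0.54 and -0.81 on the log2 scale did not pass (edgeR adjusted p = 0.378 and 0.226). With 17 to 41 counts of ETV4 a library, depth limits these tests. When the guide effect in 42D was compared with that in LNCaP sgT33-5, 0 of 9 genes passed by edgeR with DMSO (1 at unadjusted p under 0.05, 0.797% of all genes called) and 0 with R1881 (2, 1.32%), and 0 by DESeq2 in either. With a replicate block, ELK4 passed with R1881 (0.24, edgeR adjusted p = 0.0179).

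**Figure D4:**
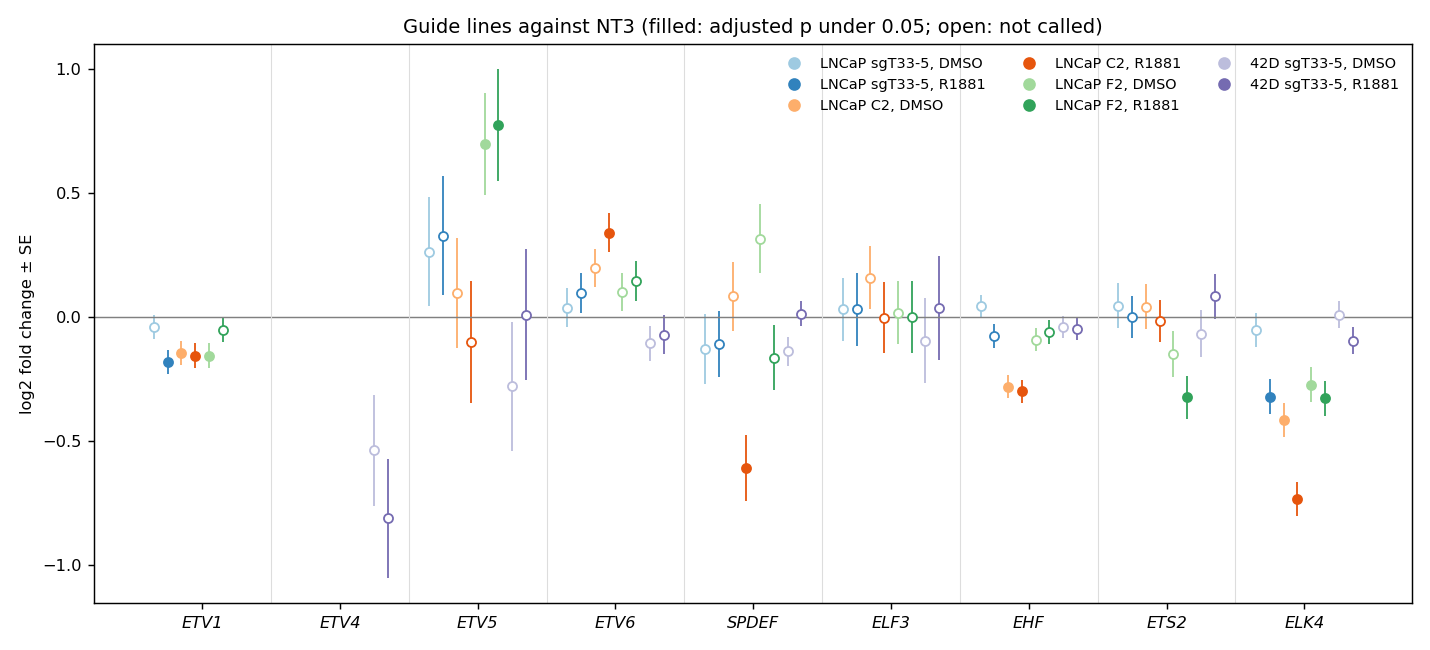
Log2 fold change of guide lines against NT3 of the same cell line and treatment (vertical axis, points with SE bars, filled where the edgeR adjusted p is under 0.05). ELK4 is filled in 5 of the 6 LNCaP comparisons, down to -0.73 in C2 with R1881, and none of the 42D points is filled.

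Between the cell lines, ETV1 was the extreme case. LNCaP is known to carry the ETV1 gene moved from chromosome 7 into a region of chromosome 14 near MIPOL1 and FOXA1. ETV1 (ENSG00000006468, chromosome 7, 13891229 to 13991425) was at 306 to 431 CPM in all 24 LNCaP libraries. In 42D it had 1 count in 1 NT3 library with DMSO, 1 count in 1 NT3 library with R1881 and 0 in the other 10. In NT3 the ratio of pooled levels was 17400-fold with DMSO (95% interval 3120 to 687000, counting error only) and 20200-fold with R1881 (3630 to 798000), higher in LNCaP. In the sgT33-5 lines, with 0 counts in 42D, it was at least 5910-fold and 5850-fold higher in LNCaP, with 3 counts over the group as the floor.

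Of the genes beside ETV1 on chromosome 7, AGMO and MEOX2 were at or near 0 in both cell lines and were not tested. DGKB, a lipid kinase gene 153.6 kb away, was at 19.8, 21.2 and 22.1 CPM in LNCaP NT3 with DMSO and at 11.5, 11.3 and 10.9 CPM in 42D NT3 (log2 fold change -0.90). Of the 5 neighbours tested, 2 were higher and 3 lower in 42D, from -1.66 for SCIN to 1.29 for THSD7A. On chromosome 14, MIPOL1 was lower in 42D, at 35.98, 41.2 and 38.4 CPM against 79.6, 77.0 and 78.7 (-1.03), as were TTC6 (-1.26) and FOXA1, a lineage factor (-0.57). Against this, 68.1% of 16564 genes differed between the 2 NT3 lines with DMSO, so a call here sets no gene apart.

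Within LNCaP, MIPOL1 also differed in 1 guide line. C2 held 145, 149 and 150.4 CPM with DMSO, against 70.8 to 84.1 CPM in the other 3 LNCaP lines, and 163, 158 and 158 CPM with R1881. Its log2 fold change against NT3 was 0.92 with DMSO and 0.94 with R1881, while TTC6 was lower (-0.37 and -0.48). ETV1 in the same C2 libraries was at 329 to 333 CPM with DMSO, slightly below NT3.

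**Figure D5:**
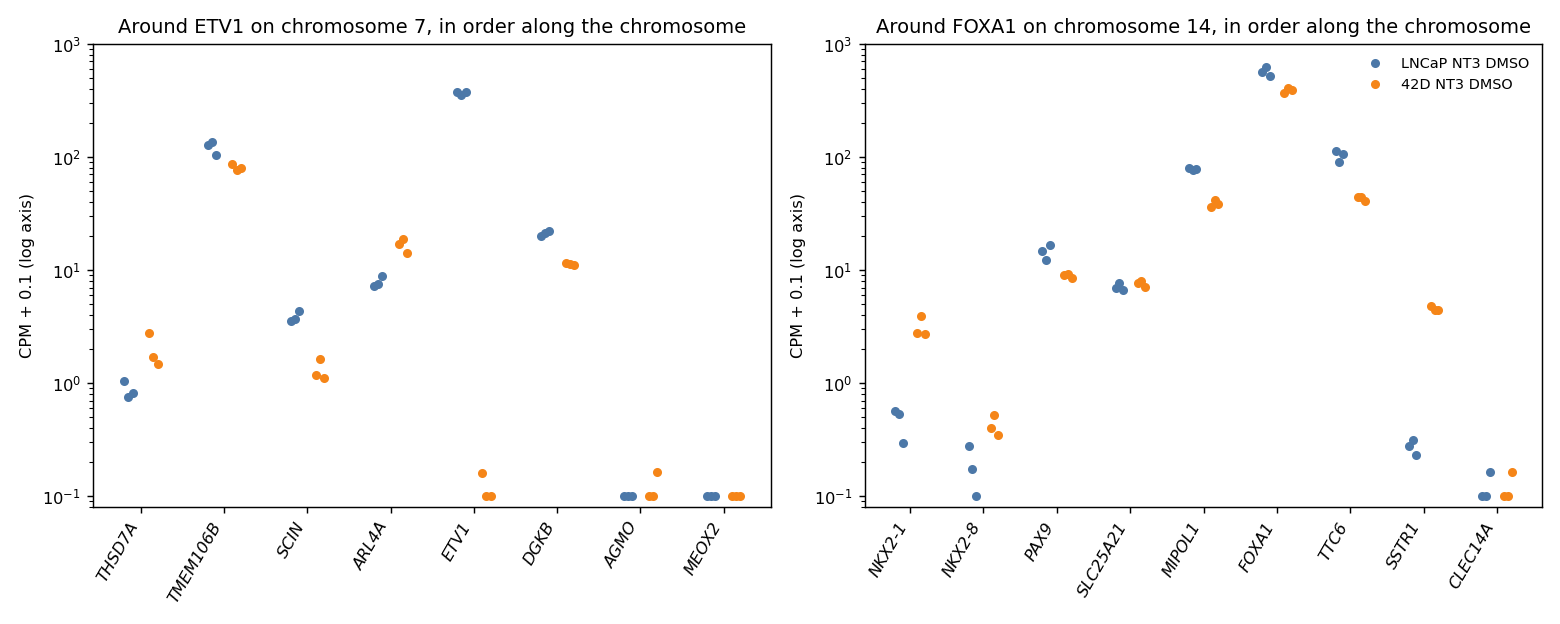
CPM + 0.1 on a log axis for ETV1 with its chromosome 7 neighbours (left) and for the genes around FOXA1 and MIPOL1 on chromosome 14 (right), in LNCaP NT3 and 42D NT3 with DMSO, 3 libraries each. ETV1 is at 354 to 377 CPM in LNCaP and at most 1 count in 42D, while DGKB stays above 10 CPM in both lines.

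The other members differed less between NT3 lines. With DMSO, 6 of 9 genes tested passed (68.1% of all genes) and with R1881 8 did (68.9%), with medians of 0.31 and 0.26 on the log2 scale over the 9 and of 0.00 over all genes. ETV4 was higher in 42D, at 2.45, 2.64 and 2.43 CPM against 0.117, 0 and 0.259 CPM with DMSO (log2 fold change 4.20, SE 0.405, edgeR adjusted p = 1.75e-11), the LNCaP values resting on 2, 0 and 4 counts. ELF3 was higher at 54.5, 61.8 and 43.7 CPM against 19.4, 21.8 and 16.9 (1.46, SE 0.148), and with R1881 by 0.93. EHF was higher by 0.43 with DMSO (SE 0.0454) and 0.27 with R1881, and ETS2 by 0.66 (SE 0.093) and 0.26. No library overlapped in these.

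SPDEF differed little with DMSO, at 61.2, 71.9 and 67.2 CPM in 42D against 50.7, 58.1 and 52.8 in LNCaP (log2 fold change 0.31, SE 0.125, edgeR adjusted p = 0.0302). That call was lost without LNCaP NT3 replicate 1 (adjusted p = 0.0979) or 3 (0.0754) or 42D NT3 replicate 2 (0.125) or 3 (0.0636), in a range of 2.69e-05 to 0.125. With R1881 it was 3.47-fold higher in 42D (1.80, SE 0.116, edgeR adjusted p = 1.11e-13). ELK4 was lower in 42D with R1881, at 251, 272 and 278 CPM against 306, 333 and 292 (-0.22, edgeR adjusted p = 0.00504), a call lost without LNCaP NT3 R1881 replicate 2 (0.0567, range 4.22e-05 to 0.0567). ETV6 with R1881 was lower by -0.18 (edgeR adjusted p = 0.0360). That call was lost without LNCaP NT3 R1881 replicate 1 (0.139) or 3 (0.163) or 42D NT3 R1881 replicate 1 (0.188) or 2 (0.0617). It was lost also by DESeq2 (0.0713), with RLE scaling (0.0574), with no filter on low counts (0.155) and with only the libraries compared (0.0713). The range was 0.0126 to 0.188. ETV5 did not pass at either treatment (-0.10 and 0.08).

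Among the 18 further ETS genes, 12 were tested between the NT3 lines with DMSO, where 6 were higher and 5 lower in 42D. In that comparison 68.1% of all 16564 genes were called, so a call sets none of the genes below apart. ELF4 was 2.60-fold and ERF, a repressor controlled by ERK, was 2.56-fold higher, and ELF1 was lower at 16.9, 20.2 and 20.02 CPM against 58.6, 61.3 and 53.0 CPM (log2 fold change -1.60, SE 0.0725). Of 7 genes that work with or degrade ETS proteins, SRF, the partner of ELK4, was 1.08 higher on the log2 scale (SE 0.0866), CIC, a repressor of PEA3-group genes, was 0.57 higher, and COP1, a ubiquitin ligase for PEA3-group proteins, was -0.19 lower. These are transcript levels and do not measure the proteins.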

How the data were processed

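Polyadenylated RNA from 36 libraries was sequenced by the submitters, and the deposited gene table holds raw read counts per gene for all of them. Per the submitters' processing notes, reads were trimmed with cutadapt and aligned with HISAT2 2.1.0 to GRCh38. The counting tool, its strand setting and the annotation release are not given in the sources used here, so reads of overlapping genes may be shared. Counts were fitted as deposited with edgeR 4.0.16 (R 4.3.3; TMM scaling, its default filter at a minimum count of 10, robust quasi-likelihood test), in 3 fits: the 24 LNCaP libraries (15519 genes), the 12 of 42D (15403 genes) and all 36 (16564 genes). P-values were adjusted over all genes of each of 25 comparisons, and the scripts were tested on simulated data. Counts per kilobase used the exon length of each gene. Alternatives were DESeq2 1.42.0, RLE scaling, no filter, only the libraries compared, a replicate block, and leaving out each library. Leaving out both libraries of low mitochondrial share was added after seeing the data.

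Members and gene lists were chosen with earlier results of these data known. All 10 members are named. From other lists, at most 2 called genes per direction and comparison are named by size of change, at 5 CPM or more. Genes with values in every group, such as neighbours of ETV1 and fusion partners, may also be given, and DUSP5, ELF2, COP1, SCIN and THSD7A were singled out after their values were seen. Replicate numbers were taken to pair libraries where every same-numbered pair had deviations correlated above 0.1, which held in 7 of 25 comparisons.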

Additional observations from a re-analysis of the deposited data

Results flagged for a closer look

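The rise of SPDEF with R1881 differed between the cell lines. It was 1.485 larger on the log2 scale in 42D NT3 than in LNCaP NT3, by a test of the difference itself (edgeR adjusted p = 9.25e-07). SPDEF rose in every library with R1881 relative to every library with DMSO in both lines, 3 against 3.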

How the results depend on the processing

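Of 71 calls on the members, 53 kept their direction and side of the threshold under every alternative run and 18 were lost under at least 1. Of 2774 recomputed values, 0 changed direction where the main fit or the alternative called the gene. Signs of values called in neither were not compared. With only the libraries compared, 10 calls were lost and 3 gained. With no filter on low counts, 8 were lost and 2 gained. DESeq2 lost 2 and gained 1, and RLE scaling lost 1 and gained 0. Counts of members called moved as follows, where a count went to or from 0 or changed by more than 1.5-fold. Smaller changes are not listed. F2 against NT3 with DMSO (3) gave 1 to 3 on leaving out 1 library. sgT33-5 against NT3 with R1881 (2) gave 1 with no filter, 0 with only the libraries compared, 0 without both libraries of low mitochondrial share, and 0 to 2 on leaving out 1 library. With only the libraries compared, F2 against NT3 with R1881 (3) gave 1 and C2 against F2 with R1881 (5) gave 3. C2 against F2 with DMSO (2) gave 1 by DESeq2 and 1 to 2 on leaving out 1 library. The C2 response against that of NT3 (0) gave 1 by DESeq2. The 42D response against that of LNCaP NT3 (1) gave 2 with no filter and 1 to 2 on leaving out 1 library, ETS2 being added without 42D NT3 DMSO replicate 3 (adjusted p = 0.0424). The cause was not tested.

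With a replicate block, 12 calls were gained and 0 lost. The counts were 2 for the C2 response against NT3, 4 for the 42D response against LNCaP NT3 and 1 for the guide effect in 42D against LNCaP with R1881 (0 without it). Genes called were SPDEF and ELK4 for the C2 response, SPDEF, ELF3, EHF and ETS2 for the 42D response, and ELK4 for the guide effect. Those 3 comparisons did not meet the rule of every same-numbered pair above 0.1, which between cell lines also counts pairs across the lines. The block itself was fitted within each cell line. There, 24 of 24 LNCaP and 12 of 12 libraries of 42D correlated best with their own number. The median correlation was 0.155 with the same number and -0.0763 with another in LNCaP, and 0.139 and -0.0876 in 42D. These calls thus depend on the model chosen. Among the 7 paired comparisons the block changed no call beyond those of ETV6 and ELK4 given above. Depth limits ERG, ETV4 in both cell lines and ETV5, whose libraries hold at most 55 counts.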

Other observations

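Several members were ordered alike by replicate number across the 12 groups. ELF3 was lowest in replicate 3 in 12 of 12 groups and highest in replicate 2 in 10. EHF was lowest in replicate 1 in 11 of 12 groups, ELK4 was lowest in replicate 1 in 9 and highest in replicate 3 in 10, and SPDEF was highest in replicate 2 in 9. What the numbers share is not stated in the labels.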
